A study of Mus musculus with 15 samples.

Results

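The comparison described here is between the kidneys of mice given adenine and asiatic acid (AA) and the kidneys of mice on a normal diet (C), and it asks which kidney functions were still away from normal under treatment. Its members are the 15740 nuclear protein-coding genes that had a value above 0 in 5 or more of the 10 libraries, of 21905 such genes in the table and 54532 genes of every kind. All mice were male C57BL/6, 8 weeks old at the start. The C mice ate normal chow and received the vehicle. The model mice (M) ate chow with 0.25% adenine for 4 weeks and received the vehicle, and the AA mice ate the same adenine chow and received AA by daily gavage at 30 mg/kg (the high dose of the study's methods, since the labels give none). All groups ate standard chow in the last 4 weeks and AA was continued to week 8, so kidneys were taken 4 weeks after adenine had stopped. Each group had 5 kidneys with 1 RNA sequencing library each. No group received AA without adenine.

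The kidney clears the blood by filtering it in the glomerulus and taking back most of the filtrate along the tubule. The proximal tubule recovers phosphate, glucose, amino acids, bicarbonate and filtered protein, secretes drugs and organic acids, makes glucose, and burns fatty acids for energy. The thick ascending limb and distal convoluted tubule recover salt, and the collecting duct adjusts water, potassium and acid. Adenine is converted to 2,8-dihydroxyadenine, which precipitates as crystals in the tubules and leads to tubular loss, inflammation and interstitial fibrosis. Asiatic acid is a triterpenoid from Centella asiatica.

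Several properties of the libraries moved with the groups. The C libraries held 18157676 to 28876338 fragments and the AA libraries 13867186 to 18413748, as recovered from the steps of the deposited values (see the processing notes), and nuclear coding genes took 6365499 to 12782562 of them in C and 1777517 to 3806517 in AA. Transcripts of the mitochondrial genome made up 75.7% ± 2.02 (SD, n = 5) of the summed FPKM in C and 87.6% ± 3.76 in AA (exact two-sided permutation test, p = 0.00794, the smallest that 252 regroupings can give). Noncoding genes took 6.43% ± 1.31 of the nuclear fragments in C and 13.1% ± 3.92 in AA. Among the C libraries, C2 stood farthest from the others, with the highest level of most tubule genes, and C4 held the highest level of most immune genes. In bulk tissue, fewer cells of a type and less RNA per cell cannot be told apart.

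The labelled tissue was checked against markers of its cell types. The summed FPKM of 8 proximal tubule markers was 235 to 1753 in C and 26.3 to 44.4 in AA, and that of 2 distal tubule markers 16.2 to 94.95 in C and 1.11 to 2.71 in AA. Slc34a1 and Slc27a2 held the highest levels of the proximal sum in C. By the test described below 5 of the 8 proximal markers were lower in AA, and Slc5a12, Cubn and Hnf4a were not called. Thick limb markers overlapped, at 43.0 to 101 in C and 27.5 to 58.2 in AA. The 3 fibroblast markers summed to 26.7 to 61.7 in C and 145 to 268 in AA, and all 3 were higher in AA. The sums of 3 macrophage markers overlapped (8.80 to 23.9 in C, 11.8 to 24.3 in AA), with C1qa higher and Csf1r lower in AA. The 2 smooth muscle markers summed to 6.79 to 14.1 in C and 0.516 to 1.47 in AA. The 2 erythroid markers summed to 24.4 to 171 in C and 4.92 to 31.4 in AA, with Hba-a1 lower in AA. Markers of tissues around the kidney were uneven among C libraries: 3 adipocyte markers summed to 0.522 to 83.7 in C and 1.90 to 26.4 in AA, and 3 urothelium markers to 0.107 to 23.4 in C and at most 1.85 in AA. The part of these shares in the results below was not tested.

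The AA kidneys differed from C kidneys at 2663 of the 15740 genes, or 16.9%. The threshold was an adjusted p (Benjamini-Hochberg, over every gene tested) no higher than 0.05 together with a change of 1 or more on the log2 scale, up or down, by limma on log2(FPKM + 1). Of these, 1925 genes (12.2%) were lower in AA and 738 (4.69%) were higher, and the median log2 fold change over all genes tested was -0.03. At 3913 genes (24.9%) the values of the groups did not overlap. Here "rose" and "fell" are used only of genes that passed this test, groups are called apart where their values did not overlap, a level is always in FPKM, and a difference is always a log2 fold change of FPKM + 1, AA minus C, with its standard error (SE). The split between higher and lower calls depended on the scaling. With each library scaled to its nuclear coding sum there were 1360 higher and 1328 lower calls (median over all genes 0.12), with quantile normalization 1170 and 1426 (median 0.06), and with TPM 227 and 5612 (median -0.66). TPM divides each library by its summed FPKM, which was 263859 to 463739 in C and 460489 to 1481920 in AA. A rise or fall below is therefore relative to the scaling of the deposited FPKM.

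The calls were then sorted by kidney function, in 45 lists of genes. The shares of transporters, metabolic enzymes and respiratory chain genes that fell stood above the 12.2% of all genes in most of the tubule lists, and matrix and complement genes stood above the 4.69% that rose, as the plot of calls by function shows.

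**Figure D1:**
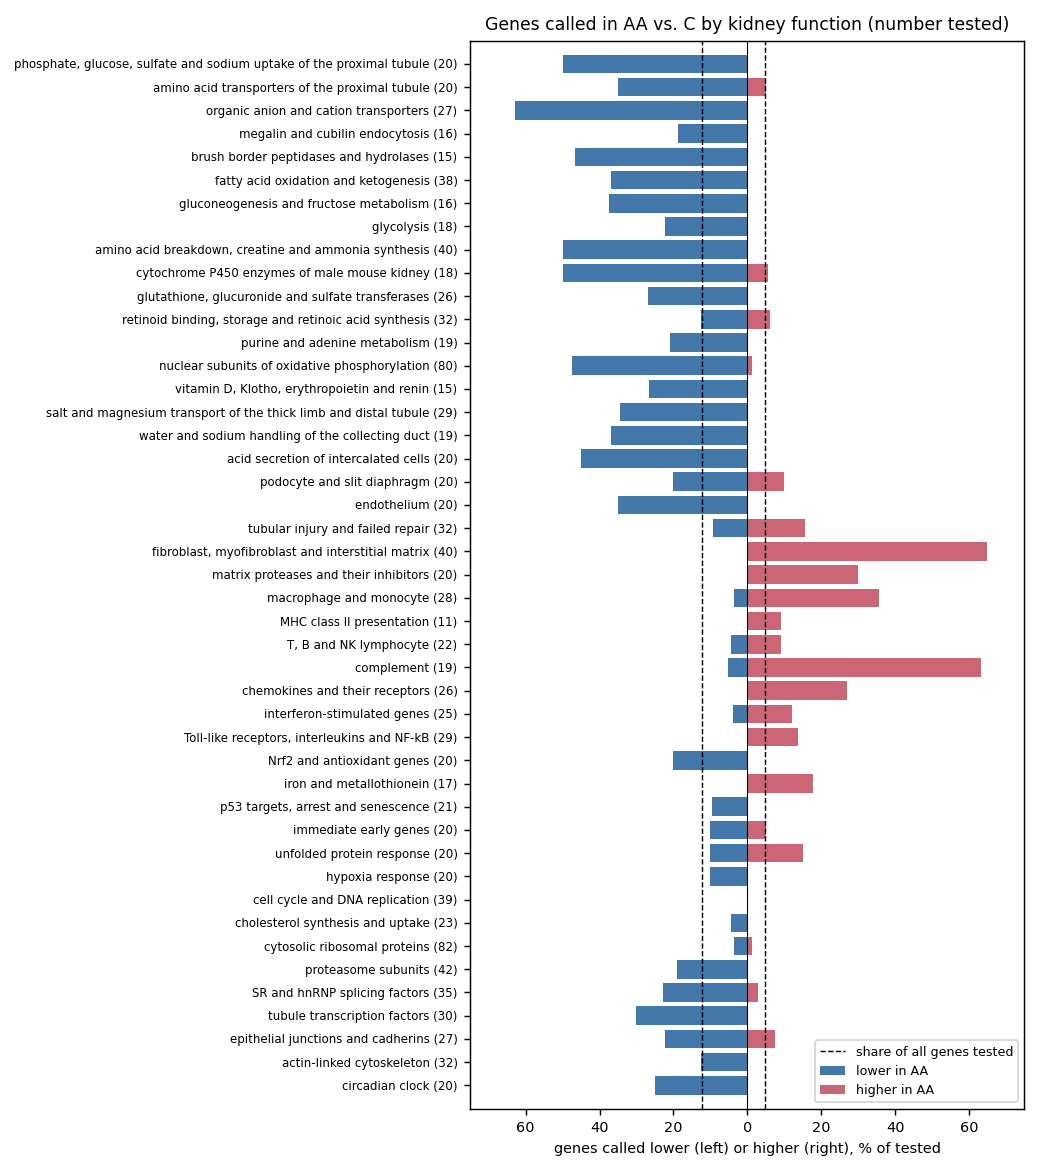
Share of tested genes in each of 45 lists that fell (blue, left) or rose (red, right) in AA vs. C, in percent; the number tested is in parentheses and the dashed lines mark the shares among all genes, 12.2% and 4.69%. The longest blue bar is that of organic anion and cation transporters (17 of 27) and the longest red bars are those of interstitial matrix (26 of 40) and complement (12 of 19); with TPM the matrix count is 6 higher and 3 lower and the complement count 3 higher and 2 lower.

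Of 20 genes for the uptake of phosphate, glucose, sulfate and sodium by the proximal tubule 10 fell and none rose in AA kidneys, with a median of -1.01. Slc34a1 encodes NaPi-IIa, the main phosphate carrier of the brush border (chr13:55398187-55415592, + strand, build GRCm38, ENSMUSG00000021490), and it had the largest fall of the genes that were called and apart. Its FPKM was 71.0, 905, 106, 139.7 and 339 in C1 to C5 and 2.62, 2.89, 4.50, 3.35 and 4.59 in AA1 to AA5. The lowest C kidney stood far above the highest AA kidney, with C2 well above the other controls. The log2 fold change was -5.48 ± 0.54 (95% interval -6.63 to -4.33, adjusted p = 2.88e-05), a 44.6-fold fall on the FPKM + 1 scale. Of its exon bases 11.7% are overlapped by Pfn3, and whether reads were counted by strand is not given in the sources used here. Slc9a3, the sodium-proton exchanger through which most bicarbonate is recovered, was at 3.77 to 19.0 in C and 0.0534 to 0.512 in AA (-2.68 ± 0.34, adjusted p = 1.22e-04). Slc5a2, the glucose carrier SGLT2, was at 1.26, 24.1, 3.53, 3.08 and 5.70 in C and 0, 1.45, 1.06, 0 and 0.236 in AA. It fell (-2.03 ± 0.51, adjusted p = 0.00771), although the highest AA kidney lay above the lowest C kidney, and 20.6% of its exon bases are overlapped by BC017158. Aqp1, the water channel of the proximal tubule and thin descending limb, was at 20.8, 10.9, 17.3, 9.18 and 13.8 in C and 10.1, 11.5, 11.4, 8.88 and 17.1 in AA. Its groups overlapped and it was not called (-0.24 ± 0.26, adjusted p = 0.485), with a positive sign when libraries were scaled to the nuclear coding sum (0.14) or quantile normalized (0.10).

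**Figure D2:**
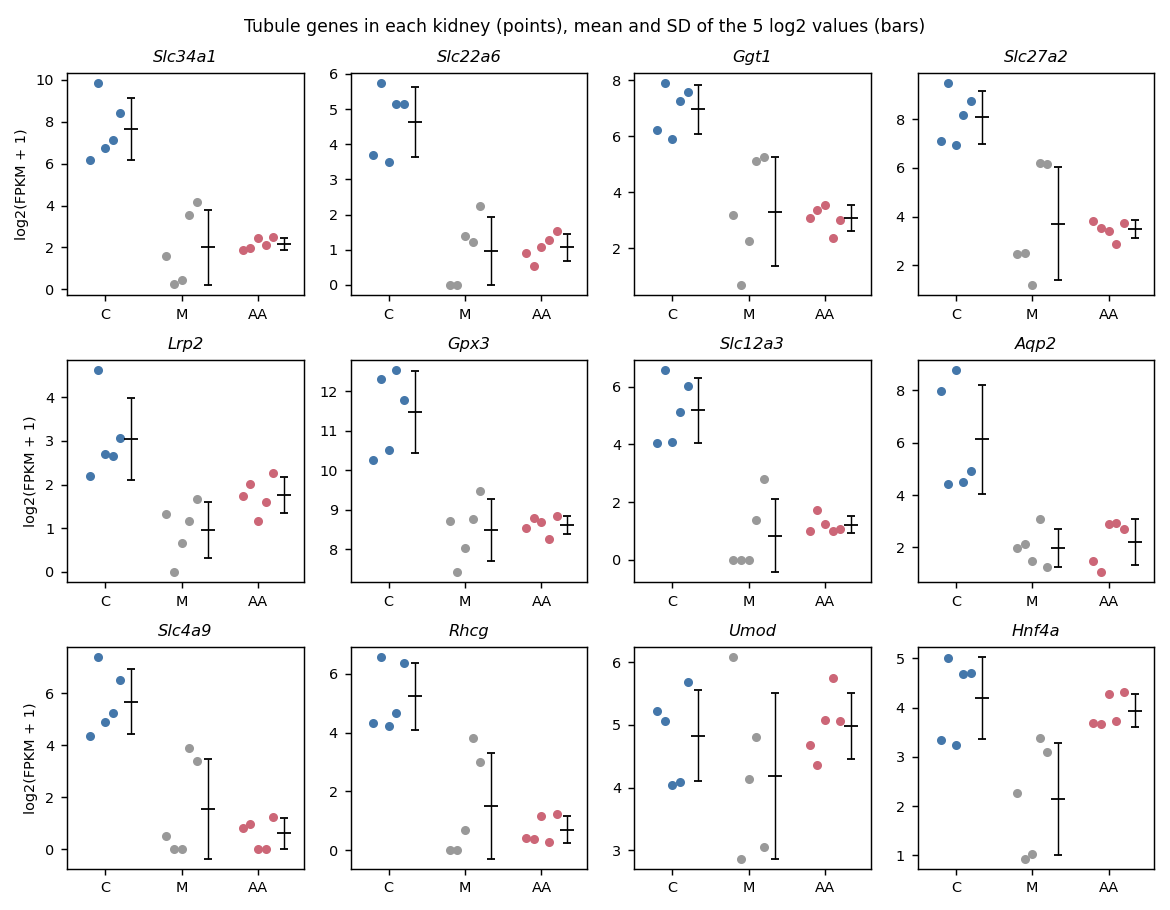
FPKM of tubule genes in each kidney (points, log axis of FPKM + 1) by group, C, M and AA, with 5 kidneys per group. Slc34a1 in AA lies between 2.62 and 4.59 and in C between 71.0 and 905.

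HNF1 and HNF4 are transcription factors known to act on proximal tubule promoters, so the promoter windows of the genes that fell were searched for the core letters of their sites. These were GTTAAT for HNF1 and CAAAGT for HNF4, each a part of the full site, on either strand, in 250 bases before to 50 after the RefSeq start (build GRCm38.p6). The HNF1 letters were in 7.10% of 32851 promoters of the table, 5.33% of those of the genes tested, 5.45% of those of genes that fell and 5.54% of those of genes that rose. The HNF4 letters were in 14.4%, 12.6%, 12.6% and 15.9%. The shares among the genes that fell were close to those among the genes tested. Of the 8 genes with the largest falls, a promoter was matched for 6, and those of Lgals4, Echdc2, Slc27a2 and Rhcg held neither set of letters. The other two are printed because they hold them. Slc34a1 has 2 HNF1 core sites and 1 HNF4 core site, and Aspdh, a dehydrogenase that acts on aspartate, has 2 HNF4 core sites 1 base apart. Each line gives the 125 bases before the start and the first 5 after it, on the + strand, 5′ to 3′, with the core sites in capitals. The windows are chr13:55399523-55399652 for Slc34a1 and chr7:44465310-44465439 for Aspdh.
Slc34a1: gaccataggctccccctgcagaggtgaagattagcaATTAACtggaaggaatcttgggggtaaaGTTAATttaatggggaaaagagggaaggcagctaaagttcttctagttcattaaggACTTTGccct
Aspdh: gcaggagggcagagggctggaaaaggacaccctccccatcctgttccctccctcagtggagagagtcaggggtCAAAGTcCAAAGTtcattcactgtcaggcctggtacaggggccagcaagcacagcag
Aspdh was at 17.2, 78.5, 14.0, 18.9 and 38.1 in C and 0, 0, 1.18, 0.727 and 0.0845 in AA (-4.40 ± 0.41, adjusted p = 2.57e-05). Slc4a9 and Pcyt2 are the remaining 2 of the 8.

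Secretion and uptake of organic ions had the largest share of falls of any list, 17 of 27 genes, with none higher and a median of -1.77. Slc22a6 encodes OAT1, which takes organic acids, toxins and drugs from blood into the tubule cell. It was at 11.99, 52.2, 10.2, 34.4 and 34.3 in C and 0.894, 0.441, 1.13, 1.42 and 1.91 in AA, with no overlap (-3.57 ± 0.40, adjusted p = 5.89e-05). Slc22a18, an organic cation carrier, ran from 43.7 to 175 in C and 1.52 to 6.07 in AA (-4.05), and Slc22a7, an anion carrier of the same family, from 4.21 to 12.1 and 0 to 0.562 (-2.87). Amino acid transporters showed 7 falls and 1 rise among 20. Slc6a18, a brush border carrier of glycine and other neutral amino acids, fell by 3.13 from 38.1 to 132 to 2.00 to 9.01 FPKM (adjusted p = 1.60e-04). Slc6a13, which carries GABA and taurine, fell by 2.43 (adjusted p = 3.02e-04). The gene that rose was Slc7a12, an amino acid transporter of the kidney, at 0, 0.429, 0.268, 0.204 and 0.481 in C and 3.29, 3.12, 2.95, 1.37 and 0.927 in AA (1.32 ± 0.25, adjusted p = 0.00129). It moved against the other 7 called members, and its groups did not overlap.

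Of 16 genes of the megalin and cubilin system, which takes up filtered protein, 3 fell (Amn, Lrp2 and Atp6v0a4) and none rose. Their share was 18.8%, against 12.2% of all genes, and 1 fell without C2, with scaling to the nuclear coding sum or with quantile normalization. Amn, the partner that brings cubilin to the membrane, was at 11.1, 46.2, 10.9, 17.0 and 32.6 in C and 2.47, 0.481, 2.71, 0.896 and 3.30 in AA (-2.94 ± 0.41, adjusted p = 2.22e-04). Lrp2 is megalin itself and was at 3.61, 23.6, 5.48, 5.25 and 7.36 in C and 2.35, 3.01, 1.24, 2.02 and 3.79 in AA. Its groups overlapped at C1 and AA5, and its fall of 1.29 (adjusted p = 0.018) was -0.90 without C2, below the fold threshold. Among 15 brush border peptidases and hydrolases 7 fell and none rose. Ggt1, which splits glutathione at the brush border, was at 73.0, 237, 58.6, 153 and 189 in C and 7.38, 9.46, 10.8, 4.20 and 7.06 in AA (-3.89 ± 0.38, adjusted p = 2.79e-05). Acy1, which releases amino acids from acetylated peptides, was at 16.8, 55.3, 13.3, 16.8 and 39.1 in C and 0, 1.495, 0, 0.393 and 0.482 in AA (-4.18 ± 0.38, adjusted p = 2.57e-05). Neither gene overlapped between groups.

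Proximal tubule cells depend on fatty acid oxidation, and 14 of 38 genes of this pathway fell with none higher (median -0.62), and 9 fell with scaling to the nuclear coding sum or with quantile normalization. Slc27a2 imports and activates long and very long chain fatty acids (chr2:126552407-126588243, + strand). It was at 136, 707, 120.4, 284 and 421 in C and 13.2, 10.7, 9.51, 6.41 and 12.4 in AA. Every C kidney stood above every AA kidney, as the rule for the largest falls required. The difference was -4.59 ± 0.43 (adjusted p = 2.57e-05), with 11.2% of exon bases overlapped by Gm26697. Etfb, which passes electrons from acyl-CoA dehydrogenases to the respiratory chain, also fell (-3.76 ± 0.37, adjusted p = 3.01e-05), but 67.6% of its sequence words are shared with Gm45233, so its value is uncertain.

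Glucose and amino acid metabolism showed the same direction of calls. In gluconeogenesis and fructose metabolism 6 of 16 genes fell, and 10 without C1, with none higher. Pcx, which makes oxaloacetate from pyruvate, was at 6.30, 26.2, 9.77, 8.40 and 15.8 in C and 2.07, 1.00, 0, 1.41 and 1.29 in AA (-2.65 ± 0.37, adjusted p = 1.97e-04). G6pc3, a glucose-6-phosphatase found in most tissues, fell by 2.26 (adjusted p = 4.49e-05). Pck1, which catalyses the committed step, was at 16.5, 80.7, 14.9, 98.7 and 101 in C and 10.8, 13.6, 13.3, 46.6 and 15.8 in AA. It was not called (-1.37 ± 0.57, adjusted p = 0.0724), the groups overlapped, and the call was gained without C1 (-1.73), without C3 (-1.76) or without AA4 (-1.72). In amino acid breakdown, creatine and ammonia synthesis 20 of 40 genes fell and none rose, between 19 and 20 whichever library was left out. Hpd, of tyrosine breakdown, was at 10.6, 40.2, 12.1, 21.4 and 40.9 in C and 0.414, 1.20, 1.88, 1.71 and 1.55 in AA (-3.31 ± 0.37, adjusted p = 5.89e-05). Haao, of the kynurenine branch of tryptophan breakdown, was at 25.8 to 106 in C and 2.67 to 5.29 in AA (-3.34). Both were apart in all 10 kidneys.

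Oxidative phosphorylation is encoded partly in the nucleus and partly in the mitochondrial genome. Of 80 nuclear subunits 38 fell and 1 rose, with a median of -0.95. With libraries scaled to their nuclear coding sum 21 fell and 3 rose, and without C2 30 fell and none rose. Ndufs7 of complex I was at 29.1, 47.4, 23.1, 36.4 and 44.9 in C and 8.51, 9.23, 10.98, 9.67 and 10.5 in AA (-1.75 ± 0.23, adjusted p = 1.55e-04). Ndufb7, an accessory subunit of the same complex, was at 7.64 to 17.6 in C and 1.58 to 3.87 in AA (-1.94). Each AA kidney stood below each C kidney for both. The one gene of this list that rose was Cox7a2l, at 24.3, 14.0, 19.8, 35.2 and 24.2 in C and 60.9, 47.6, 46.0, 42.4 and 53.9 in AA (1.11 ± 0.25, adjusted p = 0.00416). It shares 21.1% of its sequence words with pseudogenes, and without C2 its difference was 0.95. Beside these calls, the share of transcripts from the mitochondrial genome was higher in AA by 11.8 percentage points of the summed FPKM.

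Among enzymes that process foreign and endogenous compounds more genes fell than rose. Among 18 cytochrome P450 genes of male mouse kidney 9 fell and 1 rose. Cyp2a5 was at 1.98, 11.1, 2.91, 3.90 and 6.53 in C and 0, 0.107, 0.579, 0.375 and 0.689 in AA (-2.07 ± 0.33, adjusted p = 5.26e-04), and its neighbour Cyp2a4 at 16.9 to 53.4 in C and 0.465 to 8.75 in AA (-2.56). These genes share 58.7% and 58.1% of their sequence words, mostly with each other, so the reads of one cannot be told well from those of the other. The P450 gene that rose, Cyp1b1, a P450 of tissues outside the liver, was at the fold threshold (1.00 ± 0.33, adjusted p = 0.0315), and it was not called without C2, C3, AA1, AA2 or AA5 (0.72 to 0.96) or after correction for GC content (0.44). Of 26 glutathione, glucuronide and sulfate transferases 7 fell and none rose. Gstm1, a cytosolic glutathione transferase, was at 130.1, 117, 193, 139 and 108 in C and 41.3, 50.4, 39.4, 48.1 and 42.7 in AA (-1.58 ± 0.23, adjusted p = 2.39e-04), with 34.3% of its sequence words shared with other Gstm genes. Gpx3, the plasma glutathione peroxidase that is made mainly in the proximal tubule, was at 1221, 5127, 1472, 5939.9 and 3496 in C and 369.5, 440.4, 416, 309 and 459.6 in AA (-2.85 ± 0.42, adjusted p = 3.02e-04). The lowest control stood above the highest AA kidney.

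Of 32 retinoid genes, for binding, storage and retinoic acid synthesis, 2 rose (6.25%) and 4 fell (12.5%), shares close to the 4.69% and 12.2% of all genes, with a median of -0.08 that turned to 0.01 with scaling to the nuclear coding sum. Aldh1a1 and Aldh1a2, which oxidise retinal to retinoic acid, were the 2 that rose. Aldh1a1 was at 0.991, 0.398, 0.836, 0.976 and 0.412 in C and 5.31, 3.44, 1.57, 2.66 and 2.64 in AA (1.21 ± 0.24, adjusted p = 0.00206), with no overlap and with 12.03% of its sequence words shared with Aldh1a7. Aldh1a2 was at 1.54, 1.58, 1.68, 3.65 and 1.20 in C and 9.96, 3.48, 15.6, 12.1 and 8.06 in AA (1.81 ± 0.33, adjusted p = 0.00108). C4 was the highest control and lay above AA2. The 4 that fell were Dgat1, Rdh5, Retsat and Crabp2. Dgat1, which can esterify retinol as well as diglycerides, was at 3.87, 8.99, 3.98, 4.52 and 6.51 in C and 0, 0, 0.153, 1.16 and 0.447 in AA (-2.29 ± 0.27, adjusted p = 8.03e-05). Rdh5, a retinol dehydrogenase, was at 0.987 to 4.22 in C and at most 0.158 in AA (-1.49), with 25.6% of its exon bases overlapped by Bloc1s1. Rara, a receptor of retinoic acid, was at 2.81 to 5.41 in C and 3.37 to 6.86 in AA. Its groups overlapped and it was not called (0.29 ± 0.23, adjusted p = 0.338). In purine metabolism 4 of 19 genes fell (Ampd3, Aprt, Nt5c2 and Ampd2), and 1 with scaling to the nuclear coding sum or with quantile normalization. Aprt, the enzyme that salvages adenine, was at 9.12, 20.9, 10.001, 8.95 and 13.3 in C and 2.73, 3.57, 4.79, 4.63 and 5.00 in AA (-1.34 ± 0.26, adjusted p = 0.00151), but after GC correction it was -0.82, and it was not called with scaling to the nuclear coding sum or with quantile normalization. Nt5c2, a purine nucleotidase, was lost under the same scalings (5.37 to 10.2 in C, 2.33 to 3.07 in AA, -1.23 as deposited).

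The hormonal functions gave 4 falls among 15 genes (Agt, Pth1r, Cyp27a1 and Ace) and no rise. Agt, the precursor of angiotensin, was at 5.89, 13.8, 4.71, 10.8 and 9.01 in C and 0.621, 1.52, 2.89, 0.719 and 0.394 in AA (-2.16 ± 0.32, adjusted p = 3.16e-04). Cyp27a1, a mitochondrial sterol hydroxylase that can act on vitamin D, was at 5.59 to 21.1 in C and 1.40 to 4.65 in AA (-1.62). Kl encodes Klotho, the co-receptor of FGF23. It was at 1.32, 6.48, 1.39, 2.24 and 2.87 in C and 1.07, 1.36, 1.39, 0.422 and 1.15 in AA, and it was not called (-0.77 ± 0.30, adjusted p = 0.0586). Cyp27b1, which makes active vitamin D, was at 0.46, 2.67, 0.918, 1.41 and 1.72 in C and 0, 0, 0.259, 0.566 and 0.145 in AA. Its adjusted p was 0.00536 but its difference of -0.98 ± 0.23 was just under the fold threshold, and it passed without C1, C3, AA3 or AA4 (-1.004 to -1.15). Epo, made by interstitial fibroblasts, was at 0, 0.698, 0, 0.898 and 0 in C and 0, 0, 0.857, 5.91 and 4.07 in AA, uneven within both groups (0.87 ± 0.49, adjusted p = 0.177). Of its exon bases 12.2% are overlapped by Gnb2, with which it shares 9.66% of its sequence words. Ren1, which encodes renin, was at 2.57 to 10.1 in C and 1.61 to 5.32 in AA and was not called (-0.62 ± 0.32, adjusted p = 0.138).

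In the distal nephron, 10 of 29 genes of salt recovery along the thick limb and distal tubule fell and none rose. Slc12a3 encodes NCC, the thiazide-sensitive carrier of the distal convoluted tubule (chr8:94329201-94366214, + strand). It was at 15.7, 93.8, 16.0, 33.8 and 64.1 in C and 1.02, 2.27, 1.35, 1.01 and 1.11 in AA, apart in all kidneys (-3.96 ± 0.43, adjusted p = 5.34e-05). Its regulator Wnk4 was at 28.0 to 80.4 in C and 1.47 to 3.86 in AA (-3.54). Umod, the uromodulin gene of the thick limb, was at 36.4, 32.5, 15.4, 16.1 and 50.4 in C and 24.7, 19.4, 32.8, 52.8 and 32.3 in AA. The groups overlapped throughout and it was not called (0.16 ± 0.35, adjusted p = 0.742), although Slc12a1 of the same segment is among the genes that fell. Of the exon bases of Umod 19.5% are overlapped by Gm44588. The collecting duct showed 7 falls of 19. Aqp2, the vasopressin-regulated water channel (chr15:99579055-99584547, + strand), was at 255, 20.6, 437, 21.5 and 29.6 in C and 1.76, 1.09, 6.39, 6.61 and 5.51 in AA (-3.92 ± 0.79, adjusted p = 0.00208). C1 and C3 stood far above the other controls, a pattern opposite to that of the proximal genes, and without C3 the difference was -3.26. Fxyd4, a regulator of the sodium pump, shared this pattern (64.6, 12.1, 37.2, 5.30 and 11.6 in C, 1.95, 3.80, 1.98, 2.26 and 2.28 in AA, -2.50 ± 0.50, adjusted p = 0.00204).

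The list for acid secretion by intercalated cells contained 2 of the largest falls of the whole comparison. Of 20 genes 9 fell, and 5 without C2 or with scaling to the nuclear coding sum or with quantile normalization. Slc4a9, a bicarbonate carrier of the type that secretes base, was at 19.6, 167, 28.8, 37.1 and 90.3 in C and 0.752, 0.984, 0, 0 and 1.40 in AA (-5.07 ± 0.49, adjusted p = 2.79e-05). Rhcg, the ammonia channel, was at 19.1, 94.0, 17.9, 24.5 and 82.2 in C and 0.329, 0.298, 1.25, 0.218 and 1.36 in AA (-4.54 ± 0.45, adjusted p = 3.01e-05). The groups were apart for both, as the rule for the largest falls required. Atp6v1b1, the proton pump subunit found in these cells, was not called, at 5.15, 21.0, 5.10, 4.68 and 9.48 in C and 2.51, 6.28, 7.38, 4.80 and 7.90 in AA (-0.43 ± 0.38, adjusted p = 0.389). Its values overlapped, so the genes of this list did not move alike.

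The genes with the largest falls that are in none of these lists were Lgals4, Echdc2, Pcyt2 and Aspdh, described above. Lgals4 was at 21.2 to 141 in C and 0.19 to 1.66 in AA (-4.90), Echdc2 was at 42.8 to 171 and 0.61 to 4.89 (-4.69), and Pcyt2 was at 28.1 to 127 and 0.306 to 2.62 (-4.31). Lgals4 is a galectin of epithelia, Echdc2 belongs to the enoyl-CoA hydratase family, and Pcyt2 catalyses a step of phosphatidylethanolamine synthesis. All were apart.

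Glomerular genes were called in both directions and endothelial genes in one. Among 20 podocyte and slit diaphragm genes 2 rose, Wt1 among them, and 4 fell (Lama5, Vegfa, Col4a5 and Nphs1), and 1 rose without C3, without AA4 or without AA5. Wt1, a transcription factor of podocytes, was at 1.94, 1.40, 0.612, 2.73 and 1.44 in C and 6.80, 7.27, 4.59, 5.40 and 3.05 in AA (1.30 ± 0.26, adjusted p = 0.0022). Lama5, a laminin chain of the glomerular and tubular basement membrane, was at 14.6 to 32.1 in C and 0.798 to 2.37 in AA (-3.13 ± 0.26, adjusted p = 2.47e-05), and Vegfa, made by podocytes and tubule cells, at 5.99 to 42.3 and 0.857 to 2.32 (-2.43). Of 20 endothelial genes 7 fell and none rose. Egfl7, a secreted endothelial factor, was at 6.16, 9.75, 6.36, 10.2 and 7.43 in C and 1.21, 1.02, 2.01, 2.52 and 2.57 in AA (-1.66 ± 0.23, adjusted p = 2.22e-04). Of its exon bases 11.2% are overlapped by Gm20532 and Mir126a. Tie1, an endothelial receptor, fell by 1.42 (adjusted p = 1.35e-04), and by 0.96 after GC correction, under the threshold. Pecam1, the adhesion molecule CD31, was at 5.45, 1.91, 4.81, 5.85 and 4.80 in C and 3.32, 2.40, 1.52, 3.14 and 2.89 in AA and was not called (-0.57 ± 0.26, adjusted p = 0.0987).

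Markers of tubular injury were higher in part. Of 32 genes 5 rose (Havcr1, Sox9, Cd44, Vcam1 and Lcn2) and 3 fell (Krt7, Krt18 and Wfdc2), with a median of 0.39. The counts were 11 higher and 1 lower with scaling to the nuclear coding sum, 8 and 1 with quantile normalization, 11 and 3 with voom, and 2 and 9 with TPM, where the median turned to -0.21, and 1 fell without C4 or without AA1. Havcr1 encodes KIM-1, which injured proximal cells place on their surface (chr11:46735080-46779578, + strand). It was at 0, 0, 0.00651, 0 and 0.155 in C and 6.32, 15.6, 10.5, 3.91 and 9.06 in AA. C1, C2 and C4 were listed at 0 and every AA kidney was at 3.91 or more (3.17 ± 0.28, adjusted p = 2.57e-05), with 8.00% of its sequence words shared with Timd2 and Gm4926. Sox9, a transcription factor of repairing tubule cells, was at 0.617, 0.156, 0.309, 0.843 and 0.672 in C and 3.02, 3.73, 5.30, 2.57 and 2.52 in AA (1.53 ± 0.22, adjusted p = 2.61e-04). Lcn2, neutrophil gelatinase-associated lipocalin, overlapped between groups (3.99, 0.171, 2.89, 1.41 and 1.06 in C, 4.98, 2.20, 3.15, 6.56 and 5.56 in AA, 1.03 ± 0.36, adjusted p = 0.0409), and its call was lost without C2, C4, C5, AA1, AA4 or AA5 (0.74 to 1.00). Vcam1, an adhesion molecule of tubule cells that fail to repair, was at 1.05 to 5.72 in C and 4.23 to 9.33 in AA (1.04 ± 0.30, adjusted p = 0.0147), and its call was lost without C2, C3, AA1 or AA2 (0.83 to 0.99) and after GC correction (0.55). Krt7, a keratin of the collecting duct and urothelium, was at 11.9, 13.6, 13.2, 8.35 and 14.8 in C and 0.438, 1.20, 3.37, 3.01 and 2.62 in AA (-2.19 ± 0.30, adjusted p = 1.96e-04). Wfdc2 was not called without C4 (-0.96), without AA1 (-0.76) or after GC correction (-0.58).

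**Figure D3:**
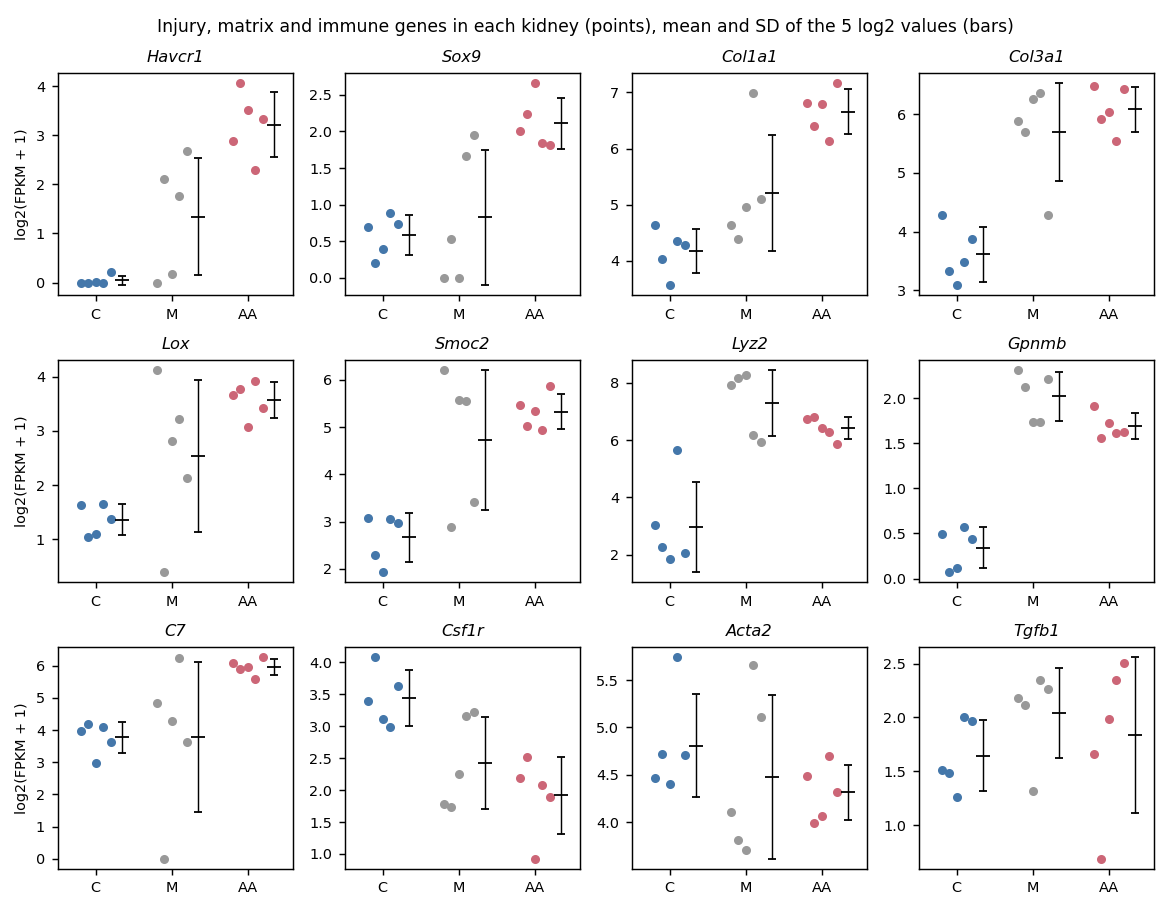
FPKM of injury, matrix and immune genes in each kidney (points, log axis of FPKM + 1) by group, C, M and AA, with 5 kidneys per group. Col1a1 in AA lies between 68.9 and 142 and in C between 10.9 and 23.9.

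Interstitial matrix had the largest number of rises among the 45 lists. Of 40 fibroblast, myofibroblast and matrix genes 26 rose and none fell (22 to 28 whichever library was left out), with a median of 1.30. With TPM 6 rose and 3 fell and the median was 0.44. Col1a1, a chain of fibrillar collagen I (chr11:94936224-94953042, + strand), was at 23.9, 15.4, 10.9, 19.3 and 18.4 in C and 111, 83.5, 109.6, 68.9 and 142 in AA (2.49 ± 0.27, 5.60-fold, adjusted p = 4.81e-05). Col3a1, of fibrillar collagen III (chr1:45311538-45349706, + strand), was at 18.6, 9.03, 7.52, 10.2 and 13.7 in C and 88.4, 59.8, 65.0, 45.6 and 85.4 in AA (2.47 ± 0.28, adjusted p = 5.89e-05). Every AA kidney held more of both than every C kidney. Lox, which cross-links collagen, was at 1.06 to 2.15 in C and 7.40 to 14.1 in AA (2.21 ± 0.22, adjusted p = 3.62e-05), and Smoc2, a secreted matrix protein of fibroblasts outside this list, at 2.83 to 7.40 and 29.6 to 57.6 (2.66). Acta2, the smooth muscle actin that marks both vessel walls and myofibroblasts, did not follow them. It was at 21.1, 25.4, 20.1, 52.6 and 25.2 in C and 21.4, 14.9, 15.8, 25.0 and 19.0 in AA and was not called (-0.50 ± 0.27, adjusted p = 0.172), beside smooth muscle markers whose summed level was lower in AA. Tgfb1, the main profibrotic cytokine, was at 1.86, 1.80, 1.39, 3.02 and 2.91 in C and 2.16, 0.616, 2.97, 4.09 and 4.69 in AA (0.19 ± 0.31, adjusted p = 0.654). Of 20 matrix proteases and inhibitors 6 rose and none fell, with a median of 0.51. With TPM 2 rose and none fell, and the median was -0.15. Mmp2, a gelatinase, was at 1.65 to 4.49 in C and 11.1 to 20.9 in AA (1.89 ± 0.25, adjusted p = 1.36e-04), and Serpine2, a protease inhibitor, at 2.12 to 3.85 and 9.21 to 15.1 (1.67).

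Complement was the other list with most of its genes higher, 12 of 19 with 1 lower (9 to 13 higher whichever library was left out). C7, a part of the membrane attack complex, was at 14.6, 17.2, 6.83, 16.1 and 11.4 in C and 66.4, 58.3, 61.8, 47.3 and 76.1 in AA (2.19 ± 0.26, adjusted p = 8.03e-05). Serping1, the inhibitor of C1, was at 105, 75.6, 52.5, 104 and 99.6 in C and 392, 324, 289.6, 253 and 351 in AA (1.90 ± 0.26, adjusted p = 1.79e-04). Both were apart in all kidneys. The list holds both activating parts and inhibitors, and the member that fell was Cfp, properdin, which stabilises the alternative pathway (3.99 to 8.81 in C, 0 to 1.34 in AA, -2.13 ± 0.26, adjusted p = 8.78e-05).

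Immune cell genes rose unevenly. Of 28 macrophage and monocyte genes 10 rose and 1 fell (8 to 14 higher whichever library was left out). Lyz2, lysozyme of myeloid cells (chr10:117277331-117282321, - strand), was at 7.12, 3.78, 2.63, 49.6 and 3.16 in C and 106, 109.5, 85.0, 76.3 and 57.4 in AA. C4 stood far above the other controls and just below the lowest AA kidney (3.45 ± 0.57, adjusted p = 6.44e-04), and without C4 the difference was 4.12. It shares 32.3% of its sequence words with Lyz1. Gpnmb, of lipid-loaded macrophages, was at 0.411, 0.0535, 0.0878, 0.485 and 0.358 in C and 2.77, 1.94, 2.31, 2.07 and 2.08 in AA (1.35 ± 0.18, adjusted p = 1.35e-04). Adgre1, the F4/80 antigen of mature macrophages, was just under the fold threshold at 0.288, 0, 0.167, 1.26 and 0.268 in C and 1.77, 1.68, 1.32, 2.13 and 0.921 in AA (0.92 ± 0.23, adjusted p = 0.00686), and passed it without C4 (1.11) or without AA5 (1.02). The gene that fell was Csf1r, the growth factor receptor that these cells depend on, at 9.52, 15.9, 7.61, 6.92 and 11.3 in C and 3.55, 4.70, 0.9, 3.23 and 2.69 in AA (-1.52 ± 0.30, adjusted p = 0.00196), with 15.1% of its exon bases overlapped by Hmgxb3. Of 26 chemokines and receptors 7 rose and none fell, 4 without C3, and 3 after GC correction. With TPM none rose or fell. Cxcr4, the receptor of CXCL12, was at 2.17, 0.413, 0.691, 2.71 and 0.711 in C and 7.35, 4.97, 5.86, 4.43 and 3.64 in AA (1.497 ± 0.29, adjusted p = 0.00159). Cxcl10 was not called without C3 (0.95) or after GC correction (0.97). Of 22 lymphocyte genes Cd3g and Cd3e, chains of the T cell receptor complex, rose and Cd79b, of the B cell receptor, fell. The shares were 9.09% higher and 4.55% lower, against 4.69% and 12.2% of all genes, and the median of the list was -0.08. Without C4 4 rose and none fell. Cd3g was at 1.35, 0.0304, 0.327, 3.27 and 1.06 in C and 10.1, 15.8, 9.40, 7.55 and 6.27 in AA (2.41 ± 0.35, adjusted p = 2.76e-04). Cd3e was at 0.0812 to 1.17 in C and 0.652 to 3.87 in AA and was not called without AA4 (0.98). Cd3d, a further chain of the T cell receptor complex, was not called (-0.23, adjusted p = 0.351), with a median of 0.116 in C and 0 in AA. Cd79b was at 1.13, 0.487, 2.16, 4.34 and 0.125 in C and listed at 0 in every AA kidney, and it was not called without C4. Of 11 MHC class II genes only H2-DMb2 passed. None passed without C2, C3, C5, AA1 or AA2, and 5 passed without C4, where these genes were highest among controls. With scaling to the nuclear coding sum 4 passed and with quantile normalization 3.

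Transcription factors that set tubule identity fell in 9 of 30 cases with none higher. Pax8, needed to form and keep nephron epithelium, was at 17.0, 10.7, 14.9, 7.94 and 10.9 in C and 0.909, 3.37, 3.18, 1.72 and 2.57 in AA (-2.01 ± 0.27, adjusted p = 1.79e-04). Its groups were apart. Hnf4a, of the proximal tubule, was at 9.18, 31.005, 8.51, 24.6 and 25.0 in C and 11.9, 11.7, 18.5, 12.2 and 18.8 in AA and was not called (-0.26 ± 0.35, adjusted p = 0.582), with a positive sign when scaled to the nuclear coding sum (0.14) or quantile normalized (0.13). Of 27 junction and cadherin genes 6 fell and 2 rose, and 4 rose with scaling to the nuclear coding sum or with quantile normalization. The cadherins moved in opposite directions. Cdh16, kidney-specific cadherin of mature tubule, was at 61.1, 77.4, 58.4, 26.9 and 79.6 in C and 3.33, 5.15, 8.31, 9.38 and 7.42 in AA (-2.97 ± 0.33, adjusted p = 5.55e-05), while Cdh6, of the developing nephron, was at 0.783, 0.0303, 0.399, 0.71 and 0.513 in C and 2.91, 4.64, 2.55, 2.21 and 1.69 in AA (1.33 ± 0.23, adjusted p = 9.00e-04). Cldn1, a tight junction protein of parietal epithelium in the glomerulus, rose as well (0.219 to 0.745 in C, 1.36 to 6.53 in AA, 1.53).

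RNA processing and protein turnover genes were not tubule functions but were also below C in part. Of 35 splicing factors of the SR and hnRNP families 8 fell (22.9%, against 12.2% of all genes) and 1 rose. Without C4 13 fell, and without C2, AA1 or AA4 2 rose. Hnrnph3 was at 8.75, 11.5, 16.8, 4.45 and 7.80 in C and 1.24, 0.633, 1.16, 1.43 and 3.03 in AA (-2.08 ± 0.31, adjusted p = 3.49e-04), Tra2a at 3.10 to 8.08 and 0.391 to 1.48 (-1.75), and Srsf9, the one that rose, at 3.24 to 5.74 and 8.71 to 18.3 (1.39). With scaling to the nuclear coding sum 5 fell and 2 rose, and after GC correction 14 fell. Of 42 proteasome subunits 8 fell (19.0%, against 12.2% of all genes) and none rose. Psmc4 of the regulatory particle was among those that fell (17.3 to 26.4 in C, 6.34 to 9.20 in AA, -1.47 ± 0.21, adjusted p = 2.28e-04). The median of the proteasome list was -0.21, and 0.13 when scaled to the nuclear coding sum. With that scaling 3 of 42 fell, beside 1328 of all 15740 genes. With quantile normalization 3 fell as well.

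The remaining genes among the 8 largest rises were Gm4981, Gm11032, Cep85, Krtdap and Rpl9-ps1. Cep85, a centrosomal protein, was at 65.7, 61.5, 66.3, 124 and 76.7 in C and 599, 528, 656, 582 and 381 in AA (2.81 ± 0.26, adjusted p = 2.57e-05), the highest level of these genes. It was apart in all kidneys, as the rule for the largest rises required. Krtdap, a keratinocyte protein, was at 0 to 8.30 in C and 11.8 to 30.05 in AA (2.76). Of the sequence words of Gm11032 94.4% are shared with other genes over 102 exon bases, of those of Rpl9-ps1 32.9% and of Gm4981 17.3%, so the reads behind these 3 rises (2.92, 2.70 and 3.01) are uncertain as to their gene.

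The GC content of the transcript moved with the difference between groups. Among genes with a mean FPKM of at least 1, the lowest of 10 classes of GC content (median 39.9%) had a median log2 fold change of 0.18 and the highest class (median 59.8%) one of -0.88. The median GC content was 54.7% in genes that fell, 48.2% in genes that rose and 48.7% in the rest. After each library was corrected for GC content and length, the medians of the classes ranged from -0.17 to -0.34, and 1721 genes fell and 702 rose. Of the original calls 1471 of 1925 falls (76.4%) and 499 of 738 rises (67.6%) remained. By function, the counts after correction were 18 falls of 27 for organic ions, 14 of 38 for fatty acid oxidation, 19 of 40 for amino acid breakdown, 36 of 80 for oxidative phosphorylation, 11 of 29 for distal salt transport and 7 of 20 for intercalated cells. They were 23 rises of 40 for matrix and 11 of 19 for complement, 4 falls of 20 for endothelium, and 1 fall of 32 with 5 rises for injury.

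**Figure D4:**
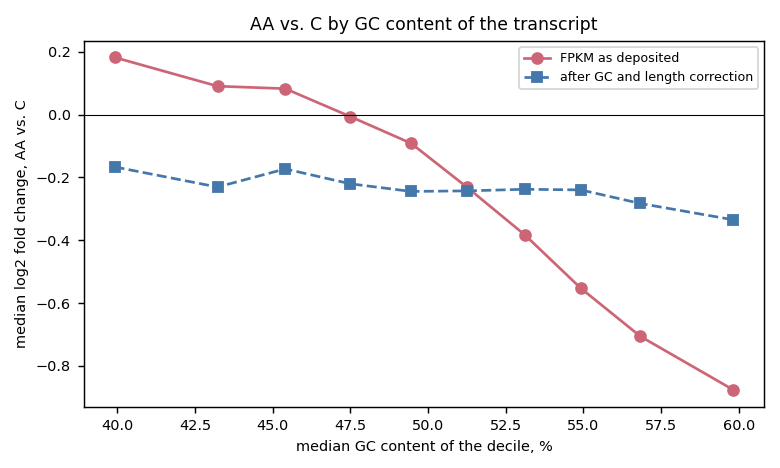
Median log2 fold change (AA vs. C) in 10 classes of genes ordered by transcript GC content, as deposited and after correction for GC content and length. The deposited values run from 0.18 in the lowest class to -0.88 in the highest, and the corrected ones from -0.17 to -0.34.

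The untreated model shows where these functions stood without AA, with the caution that the comparisons share libraries and that the 5 M libraries were uneven. Genes of any kind above 0 numbered 10068 to 12222 in M1 to M3 and 23040 to 25460 in M4 and M5. In fits of the same kind 363 of 15633 genes differed between M and C (2.32%; 71 or 0.454% higher, 292 or 1.87% lower), and 746 of 14720 between AA and M (5.07%; 603 or 4.1% higher, 143 or 0.971% lower). Whether AA and M differ in their distance from C was not tested. Slc34a1 was at 1.97, 0.184, 0.378, 10.9 and 16.9 in M1 to M5, with M4 and M5 above every AA kidney and the other three below that range. Slc27a2 was at 4.45, 4.77, 1.29, 72.5 and 71.1 and Slc12a3 at 0, 0, 0, 1.58 and 6.03, again higher in M4 and M5. Over the lists, the mean of log2(FPKM + 1) of the organic ion transporters was 2.96 ± 0.66 (SD, n = 5) in C, 1.00 ± 0.49 in M and 1.41 ± 0.12 in AA. That of the genes of amino acid breakdown was 3.21 ± 0.55 in C, 1.63 ± 0.40 in M and 2.00 ± 0.11 in AA, and that of the oxidative phosphorylation subunits 4.28 ± 0.30, 3.50 ± 0.40 and 3.44 ± 0.36. For these tubule lists the means of M and AA lay below that of C, but single M kidneys were uneven. In the organic ion list M1 to M3 (0.905, 0.387 and 0.726) stood below every AA kidney (1.22 to 1.54). In the oxidative phosphorylation list M1 (4.16) stood above C1 (4.12) and C3 (3.84). In AA vs. M 3 of 25 organic ion transporters, 3 of 40 genes of amino acid breakdown and 1 of 19 proximal uptake genes were higher, and none of the 80 respiratory subunits was called.

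Matrix and immune lists stood differently. The mean of the matrix list was 3.04 ± 0.42 in C, 3.56 ± 0.66 in M and 4.25 ± 0.29 in AA, and AA vs. M gave 4 of 40 higher and 1 lower. Col1a1 was at 23.8, 19.9, 29.9, 126 and 33.2 in M, where only M4 reached the AA range. Havcr1 was at 0, 3.31, 0.127, 2.39 and 5.41 in M and higher in AA than in M (1.87 ± 0.51, adjusted p = 0.0400). The complement list was at 2.31 ± 0.50 in C, 2.94 ± 0.45 in M and 3.24 ± 0.14 in AA. Macrophage genes had their highest mean in M, at 2.84 ± 0.36, against 1.24 ± 0.55 in C and 2.18 ± 0.21 in AA, and 3 of 28 were lower in AA than in M. Lyz2 was at 241, 289, 307, 70.7 and 60.5 in M, so M1 to M3 were above every AA kidney and M4 and M5 were within the AA range. The splicing factors were at 2.87 ± 0.22 in C, 2.90 ± 0.30 in M and 2.29 ± 0.10 in AA, with 7 of 35 lower in AA than in M and none of 35 called in M vs. C.

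**Figure D5:**
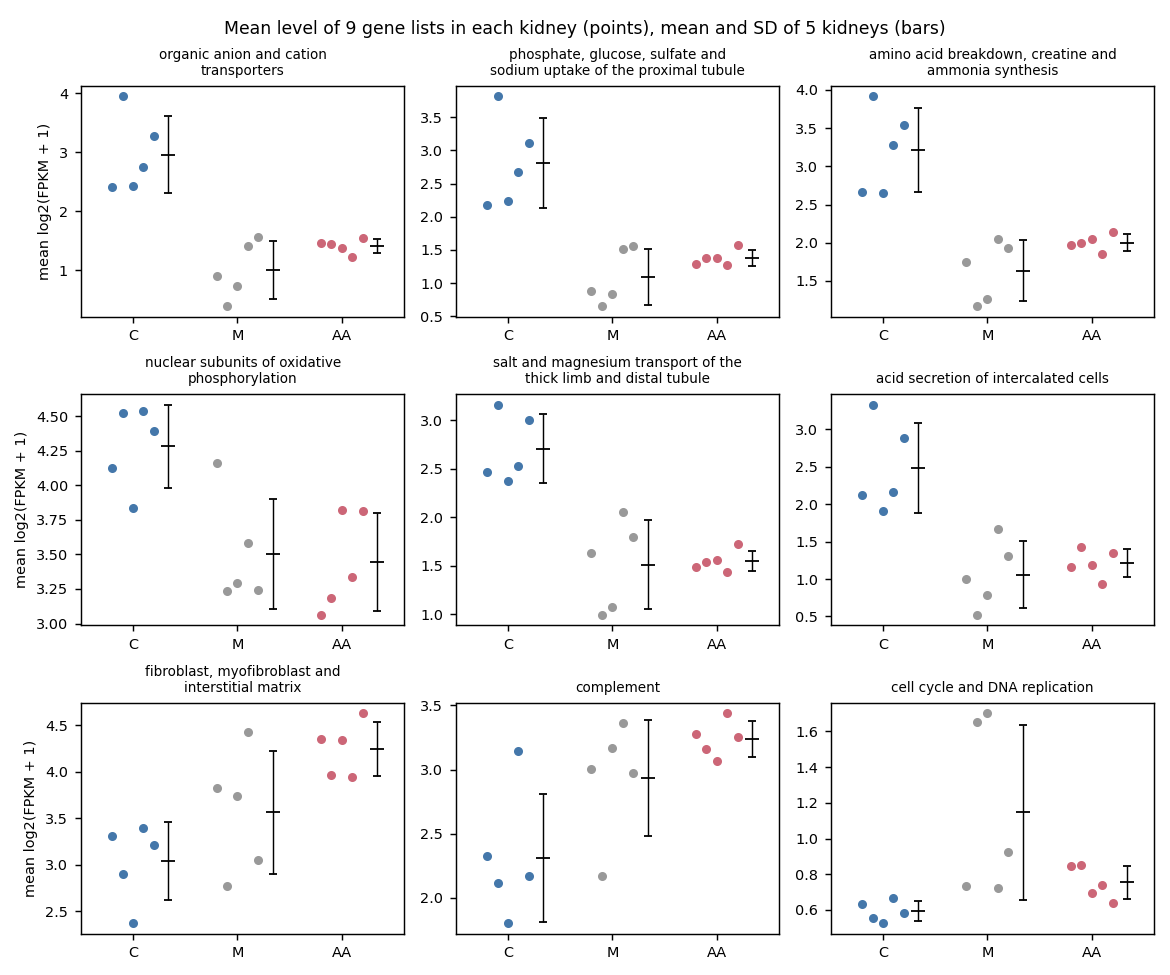
Mean log2(FPKM + 1) of 9 gene lists in each kidney (points) of C, M and AA, with the mean and SD of 5 kidneys per group (bars). AA points lie below all C points for the organic ion, proximal uptake and amino acid breakdown lists and above all C points for the matrix list. M points are spread more widely than AA points.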

How the data were processed

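Poly-A RNA of 15 mouse kidneys, 5 per group, was sequenced as 150-base read pairs. Per the submitters' processing notes the tools were fastp, HISAT2 2.0.5 and featureCounts 1.5.0-p3 with build mm10. The authors deposited 1 table of FPKM for 54532 genes, and its unit was used as given. They tested counts with DESeq2, and those counts were not analysed here. In the deposited FPKM 97.5 to 98.9% of low values were whole multiples (within 0.02 of a fragment) of what 1 fragment is worth. The implied per-million term followed median-of-ratios size factors over 7203 genes (ratio 1.01 to 1.10) and not the library's own total (0.518 to 2.30), and a constant factor in the absolute number of fragments was not resolved. Counts of fragments carry counting error only, while the interval of a log2 fold change covers the spread between kidneys.

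Genes were joined by Ensembl identifier to GENCODE M21 (GRCm38), in which 123 rows were not found. Nuclear protein-coding genes above 0 in 5 or more of the 10 libraries were fitted as log2(FPKM + 1) with limma 3.58.1 (R 4.3.3; lmFit, eBayes with an intensity trend), C and AA libraries only, without covariates. P-values are two-sided and were Benjamini-Hochberg adjusted over all 15740 genes. A gene was called at an adjusted p of at most 0.05 and an absolute log2 fold change of at least 1. M vs. C and AA vs. M were fitted in the same way on their own libraries. The fit was tested on simulated data. The mitochondrial share was tested with an exact permutation test over libraries. Nothing says whether kidneys of a group were processed together, so p-values measure the spread between these kidneys.

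The gene lists and the genes named were chosen with earlier results of these data known, so no test was made over a list, and each list is described by its counts beside those of all genes. Named were 32 genes fixed by name, the 8 largest rises and 8 largest falls among genes both called and without overlap between groups, and from each list at most the 2 called genes with the smallest adjusted p in each direction. Some of the genes this rule names are not reported here. Other members are named, without values, only to complete a small count, and were chosen after their values were seen. Shared reads were gauged as the share of 31-base words of a gene's exons (1 in 4 kept) found in other genes, and overlap as the share of exon bases covered by another gene. Promoters are those of RefSeq (GRCm38.p6). Alternatives were other pseudocounts, filters, scalings, fits and left-out libraries. Fits on the recovered fragments, on thinned fragments and with a correction for GC content and length were added after seeing the data. Figures were drawn with matplotlib 3.10.9, and tables were handled in Python 3.11.15 with numpy 2.4.6, pandas 2.3.3 and scipy 1.17.1.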

Additional observations from a re-analysis of the deposited data

Results flagged for a closer look

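Within groups of 5, single kidneys stood apart in 15 of 222 sets of values checked, by the gap of the highest or lowest value to its nearest neighbour as a share of the group's range (limit 0.71). Chance flags about 1 in 20 such sets. On the log2(FPKM + 1) scale, AA4 was highest for Pck1 (0.747) and lowest for Kl (0.726) and Slc6a18 (0.711). AA2 was highest for Rdh5 (0.851), Fxyd4 (0.780) and the noncoding share of nuclear fragments (0.734). AA1 was lowest for Stat2 (0.756), AA3 highest for G6pc3 (0.743) and AA5 highest for Dbp (0.735). Among controls, C4 was highest for Acta2 (0.762) and Aldh1a2 (0.739) and lowest for Cdh16 (0.713). C2 was lowest for Pecam1 (0.806) and highest for Gclc (0.744), and C5 was highest for Havcr1 (0.955), where the other controls were at or near 0.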

How the results depend on the processing

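The number of genes called was 2663 as reported and 2343 to 2688 with a lower bound on the mean FPKM, any library above 0, all 15 libraries, quality weights, no trend, scaling to the nuclear coding sum, centring, quantile normalization, thinning, GC correction or the replicate block. It was 5839 with TPM (227 higher, 5612 lower), 4346 over genes of every kind (2241 higher), 4767 with a pseudocount of 0.01 (1833 higher, 2934 lower), 5230 with 0.1 (2052 and 3178) and 5106 with voom on recovered fragments (2186 and 2920). Scaling to the nuclear coding sum gave 1360 higher and quantile normalization 1170. The cause of the larger counts was not tested. TPM divides each library by its summed FPKM, and more genes were tested over all kinds. Leaving out each kidney gave 2243 (without C2) to 2982 (without C1) calls, 620 (without C3) to 891 (without C1) of them higher and 1620 (without C2) to 2091 (without C1) lower. The higher mitochondrial share in AA held in each left-out fit (10.8 to 13.4 percentage points, exact permutation p = 0.00794 to 0.0159) and as a share of fragments (20.7).

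The replicate numbers of C and AA carry no stated pairing. Correlations of same-numbered deviations were 0.154, -0.077, -0.036, -0.014 and 0.105, the first being the highest of all pairs of a C and an AA library. Whether same-numbered kidneys share more than a number was not tested further. With the replicate number as a block 2682 genes were called (745 higher, 1937 lower).

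Among the 107 genes named, signs changed for 6, of which only Cyp1b1 was called with the deposited values. Among all called genes, 7 of 738 rises changed sign with TPM and 5 after GC correction, and no fall did under these 2 settings. Aqp1 was 0.14 with the nuclear coding sum and 0.10 with quantile normalization, and Hnf4a 0.14 and 0.13. Umod was -0.91 with TPM and -0.0327 (without C3) to 0.378 (without C5) over left-out kidneys, with -0.0283 without AA4 and -0.0184 without C4. With TPM Tgfb1 was -0.58, Rara -0.66 and Cyp1b1 -0.0321. Of the 93 called genes among 107 named, 71 were called under each of the 16 settings other than left-out kidneys in which they were tested. Not all were tested with a lower bound on the mean FPKM. In every left-out fit 82 were called.

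Of C and AA, depth limits AA more: it has 1777517 to 3806517 nuclear coding fragments a library, against 6365499 to 12782562 in C, so a gene listed at 0 in AA was not detectable at that depth. The M libraries had 1786922 to 6600844, with a median of 2533428 against 2911870 in AA. Thinning all libraries to 1 depth gave 2671 calls. The medians of 9 lists, near 0, those for retinoid, Nrf2, proteasome, actin, clock, glycolysis, podocyte, p53 and hypoxia genes, changed sign with scaling to the nuclear coding sum.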

Other observations

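Antioxidant, iron and clock genes had calls that the account above does not hold. Of 20 Nrf2 and antioxidant genes 4 fell (Gpx3, Osgin1, Gclc and Sod1) and none rose, with a median of -0.18 that was 0.18 with scaling to the nuclear coding sum. Gclc, which limits glutathione synthesis, was at 11.01, 28.7, 13.8, 13.7 and 14.2 in C and 3.53, 5.89, 3.93, 5.70 and 6.45 in AA (-1.45 ± 0.26, adjusted p = 0.00115), with C2 far above the other controls and the groups apart. Of 17 iron and metallothionein genes 3 rose (Heph, Hpx and Cp) and none fell, and 1 rose without C2, without C3 or without AA1. Of 20 clock genes 5 fell, Tef, Dbp, Per1 and Per2 among them, and none rose, and 3 fell without C2. Tef was at 10.8, 46.2, 9.998, 11.8 and 19.3 in C and 2.75, 2.71, 1.78, 2.25 and 3.19 in AA (-2.31 ± 0.35, adjusted p = 3.47e-04), and Dbp at 8.11, 23.6, 5.32, 2.47 and 5.46 in C and 0.343, 0.222, 0.623, 0.292 and 2.57 in AA (-2.27 ± 0.44, adjusted p = 0.00183), where AA5 lay above C4. Both encode factors that bind D-box elements and cycle over the day. Of the exon bases of Dbp 18.0% are overlapped by Sphk2. The time of day at which kidneys were taken is not given in the sources used here, and its part in these values was not tested.

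Of 25 interferon-stimulated genes 3 rose, Ifit1 and Zbp1 among them, and 1 fell (Stat2), so 4 of 25 were called beside 16.9% of all genes. Without AA2 1 rose, with scaling to the nuclear coding sum 5 rose and none fell, and after GC correction 1 rose. With TPM none rose and 5 fell. Stat2 was at 3.65, 5.48, 3.10, 4.06 and 4.65 in C and 0.186, 2.30, 1.96, 1.59 and 1.57 in AA (-1.10 ± 0.27, adjusted p = 0.00658) and was not called without AA1 (-0.85). Of 29 genes of Toll-like receptors, interleukins and NF-kB 4 rose (Tlr1, Il6, Il33 and Il10) and none fell, or 13.8% of them against the 4.69% of all genes that rose. Without AA2 2 rose, after GC correction 1, and with TPM 1 rose and 6 fell.

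The other lists are given by their counts, to be read beside the 12.2% of all genes that fell and the 4.69% that rose. Of 39 cell cycle genes none was called, with a median of 0.15, while voom on recovered fragments called 7 higher and 1 lower; at an unadjusted p under 0.05 7299 of all genes tested passed. Cholesterol genes gave 1 fall of 23 (Mvd), and 2 without C1, C3 or AA1. Ribosomal proteins gave 1 rise (Rps4x) and 3 falls (Rpl38 and Rpl36 among them) of 82, but 13 rises and 2 falls with scaling to the nuclear coding sum, 8 and 3 with quantile normalization, 5 rises without C4, and 5 and 6 falls without AA3 and AA5. Glycolysis gave 4 falls of 18 (Gapdh, Gpi1, Pfkm and Hk1), or 22.2% against 12.2% of all genes, and 1 with scaling to the nuclear coding sum and 2 with quantile normalization or after GC correction. The hypoxia response gave 2 falls of 20 (Vegfa and Car9), or 10%, under the share of all genes, and 1 without C2, C5, AA1 or AA2. The p53 targets gave 2 falls of 21 (Bax and Gadd45b), or 9.52%, also under that share, and 1 without C1, C3 or AA2. Immediate early genes gave 1 rise (Klf6) and 2 falls (Klf2 and Ier2) of 20, with no rise without C2, C3, C5, AA1 or AA4, 2 rises without C4, and 1 fall without C4, AA1 or AA2. The unfolded protein response gave 3 rises (Canx, Dnajc3 and Sdf2l1) and 2 falls (Creld2 and Atf4) of 20, a share of rises above the 4.69% of all genes. Of these 20 genes 1 rose without C2, C5 or AA1 or after GC correction, and 5 rose with scaling to the nuclear coding sum. The actin cytoskeleton gave 4 falls of 32 (Flna, Tln1 and Vil1 among them), or 12.5%, close to the 12.2% of all genes. This list gave 5 rises with scaling to the nuclear coding sum or quantile normalization. Gapdh, often used as a reference gene, was at 3.23, 12.9, 2.63, 4.06 and 7.01 in C and 0, 0, 0.0967, 0.0235 and 0.0301 in AA (-2.57 ± 0.31, adjusted p = 8.78e-05). Of its sequence words 30.7% are shared with pseudogenes, so its level in both groups and its fall are uncertain.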
